A study of Mus musculus and Homo sapiens with 4 samples.

Results

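Expression of 10 genes of the p53 pathway was compared between wild-type (WT) and NEAT1 knockout (KO) mouse embryonic fibroblasts (MEFs). The genes were taken by symbol from the 23329 entries listed for the MEF libraries, and all 10 were found. They are Trp53, which encodes p53 itself, its regulators Mdm2 and Cdkn2a, and the p53 targets Cdkn1a, Ccng1, Bax, Bbc3, Perp, Gdf15 and Sesn2. The series holds 4 libraries, of which the 2 from MEFs were used. Both fibroblast lines were generated from C57BL/6 embryos at E13.5 and were sequenced at passage 2 to 3 as poly-A RNA, the WT line from WT and the KO line from NEAT1 KO embryos. The labels name no treatment, and neither the kind of NEAT1 allele nor the number of embryos behind each line is given in the sources used here. Each genotype gave 1 library, so the spread between replicates is unknown. Differences are given as values without a test or a P-value.

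p53 is a transcription factor that is held at a low level by Mdm2, a ubiquitin ligase that p53 itself induces. The Arf product of Cdkn2a blocks Mdm2, whereas DNA damage kinases act on p53 directly. Active p53 induces the CDK inhibitor p21 (Cdkn1a) and cell death genes such as Bax and Bbc3, and through p21 and the DREAM complex it lowers genes of the cell cycle. In cultured MEFs this pathway is known for its part in growth arrest and senescence. The long non-coding RNA Neat1, the scaffold of paraspeckles, is itself a p53-responsive gene, which is why its loss was read against p53 targets here.

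The p53 half-site, the decamer to which a p53 dimer binds, was searched in RefSeq promoters of 300 bases (250 before and 50 after a transcript start, build GRCm38.p6). The decamer is its own reverse complement in consensus, so a single search covers both strands. A promoter was listed for 9 of the 10 genes, all but Perp, and 5 of the 9 genes held at least 1 exact half-site, in Cdkn1a, Trp53, Mdm2, Ccng1 and Bax. Of all 32851 promoters of this length 8.36% held one, or 9.55% when each gene was counted once. Among genes with a promoter on the lists described below, 2 of 7 arrest targets and 3 of 10 cell death targets held a half-site. The same was true of 3 of 15 targets of metabolism and repair and 1 of 12 p53-p21-DREAM genes. The stretches below are shown because these 5 genes held a half-site while their differences between the libraries were of unlike size. They run 5′ to 3′ on the strand of the gene, with half-sites in capitals.
Cdkn1a: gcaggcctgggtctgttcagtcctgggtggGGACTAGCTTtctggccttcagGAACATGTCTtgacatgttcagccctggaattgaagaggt
Mdm2: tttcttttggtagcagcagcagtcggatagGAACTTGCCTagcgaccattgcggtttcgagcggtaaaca
Trp53: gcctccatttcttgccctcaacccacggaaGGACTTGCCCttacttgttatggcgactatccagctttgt
Ccng1: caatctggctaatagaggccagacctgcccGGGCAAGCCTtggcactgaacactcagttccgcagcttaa
Bax: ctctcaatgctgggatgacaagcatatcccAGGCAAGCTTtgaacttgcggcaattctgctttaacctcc

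The Cdkn1a stretch lies on the plus strand at chr17:29090876-29090967 and holds 2 half-sites, which begin 73 and 51 bases upstream of the more upstream of its 2 listed starts. The promoter of its other start held none. The Mdm2 stretch lies on the minus strand at chr10:117710905-117710974, and its half-site begins 186 bases upstream of the start. That of Trp53 lies on the plus strand at chr11:69580254-69580323 and begins 75 bases upstream. Ccng1 (minus strand, chr11:40755432-40755501) and Bax (minus strand, chr7:45467060-45467129) hold theirs 185 and 201 bases upstream. The listed promoters of Bbc3, Gdf15, Sesn2 and Cdkn2a held no exact half-site, which says only that these letters are not in these windows. As described in the following paragraphs, Cdkn1a was among the members with the largest difference between the libraries, whereas Ccng1 and Bax, with a half-site as well, had nearly the same level in both. Bbc3 and Cdkn2a, without a half-site in their listed promoters, were also among the members with the largest differences. Binding of p53 to these sites was not tested.

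Levels are RPKM, which scale the reads of an entry to its length and to the depth of the library. Differences are log2 ratios of the KO value plus 1 over the WT value plus 1, which understates the change of genes with low values. In the WT library 11233 entries reached 1 RPKM, against 11118 in the KO library. A total of 10888 entries reached 1 RPKM in WT and in KO alike. These, called expressed entries here, had a median log2 ratio of -0.06, with the 5th percentile at -0.55 and the 95th at 0.49. Neat1 (chromosome 19, 5842302 to 5845478) had 29.5 RPKM in WT and 2.01 RPKM in KO, the lowest log2 ratio of all expressed entries (-3.34), so the labels fit the targeted gene. All 10 fibroblast markers examined, among them Vim, Col1a1 and Fn1, were expressed in both libraries, with 6485 RPKM in sum in WT and 6461 RPKM in KO. The nearly equal sums hide opposite differences, since 8 markers were higher in KO and Vim (3151 and 2448 RPKM) and Fn1 (765 and 517 RPKM) were lower, with a median of 0.43. Of these markers Lum (7.98 and 33.0 RPKM in WT and KO), Dcn (19.8 and 64.0) and Pdgfra (4.18 and 13.8) were above a log2 ratio of 1. The libraries also stood apart in ways that the knockout does not name. Xist had 28.6 RPKM in WT and 0.0500 RPKM in KO, while the Y-linked gene Eif2s3y was listed at 0 in WT and had 6.30 RPKM in KO, so the lines differed in the sex chromosome genes they express. All 10 interferon-stimulated genes examined were higher in KO, 9 of them above a log2 ratio of 1. The exception was Mx1 (0.0149 and 1.02 RPKM, log2 ratio 0.995), whose low values the pseudocount of 1 understates, the ratio without it being 68.9. With a pseudocount of 0.1, after centring, quantile normalization or upper-quartile scaling, all 10 lay above 1. The highest log2 ratio was that of Ifit3 (1.53 and 43.2 RPKM), and Isg15 was the most abundant (20.8 and 319 RPKM). All 8 macrophage markers were higher in KO, with a summed level of 21.5 RPKM in WT and 52.4 RPKM in KO, although Ptprc, the pan-leukocyte marker, had 0.0449 and 0.0813 RPKM. Whether sex-linked genes, interferon-stimulated genes or macrophage markers had a part in the values below was not tested, and genotype and fibroblast line cannot be told apart. In RNA from a whole culture, fewer cells that express a gene and less RNA per cell also cannot be told apart.

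Among the 10 genes, 7 were higher and 3 lower in KO, and their median log2 ratio was 0.28. Of the expressed entries 39.1% were higher and 60.9% lower in KO. Over all 23329 entries, many of them listed at 0, the shares were 30.1% and 43.2%. Past a log2 ratio of 0.58, about a 1.5-fold difference, were 2 genes upwards (Cdkn1a and Bbc3) and 2 downwards (Cdkn2a and Perp). Of all entries 2.4% lay above 0.58 and 2.58% below -0.58, and of the expressed entries 3.98% and 4.26%. Past a log2 ratio of 1 in either direction lay 1 gene, Perp, which was lower in KO, where 0.977% of all entries lay above 1 and 0.334% below -1 (1.68% and 0.56% of the expressed entries). No gene lay past a log2 ratio of 2, the fold that the study applied to its prostate cancer cells, where 0.223% of all entries lay above 2 and 0.0171% below -2 (0.367% and 0.00918% of the expressed entries). Of the 10 genes 6 lay between the 5th and 95th percentiles of the expressed entries, and Cdkn1a, Bbc3, Cdkn2a and Perp lay outside.

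**Figure D1:**
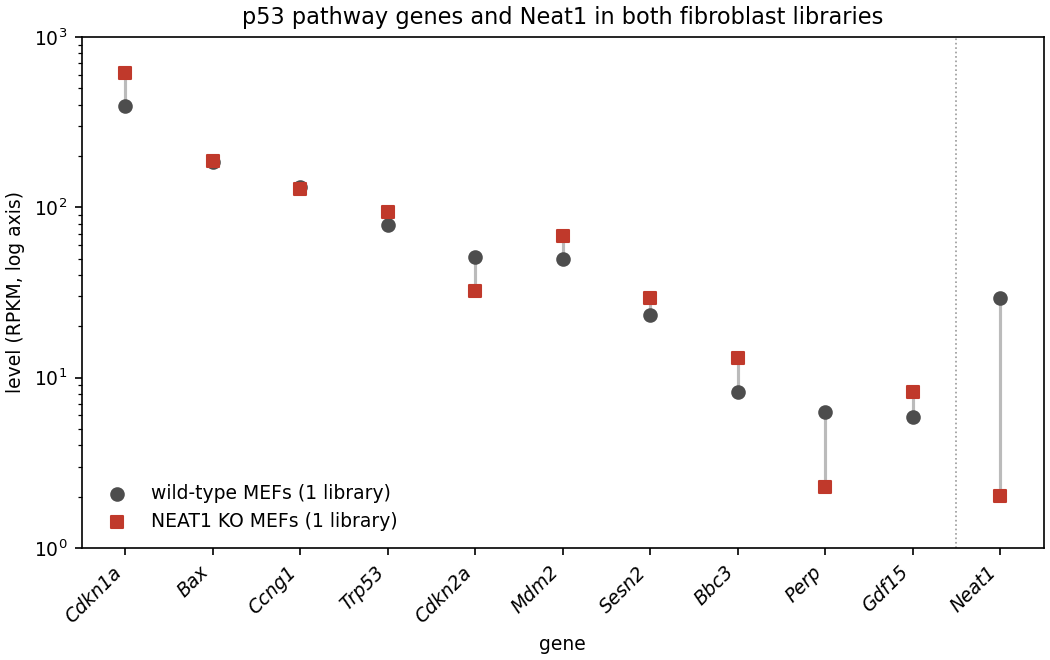
Level in RPKM, on a log axis, of the 10 p53 pathway genes and, right of the dotted line, Neat1, with 1 point per library (grey circles, WT MEFs; red squares, NEAT1 KO MEFs; no error bars, since there is 1 library each). Cdkn1a is the most abundant gene in both libraries, Bax and Ccng1 nearly coincide, and Perp shows the largest gap of the p53 genes, from 6.25 RPKM in WT to 2.28 RPKM in KO.

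Of the core regulators, p53 and Mdm2 transcripts were moderately higher and Cdkn2a transcripts lower in KO. Trp53 (chromosome 11, 69580359 to 69591873, plus strand) had 78.3 RPKM in WT and 93.8 RPKM in KO, a ratio of 1.20 and a log2 ratio of 0.26. By this log2 ratio it ranked 1190 of the 10888 expressed entries, the highest being first. Mdm2 (chromosome 10, 117688905 to 117710716, minus strand) had 49.8 RPKM in WT and 67.7 RPKM in KO, a ratio of 1.36 and a log2 ratio of 0.43, and ranked 634. Mdm2 is both the main inhibitor of p53 and one of its targets. Its relative Mdm4, which binds and inhibits p53, had 4.72 RPKM in WT and 4.71 RPKM in KO. Cdkn2a (chromosome 4, 89274473 to 89294619, minus strand) encodes both p16Ink4a, a CDK inhibitor, and p19Arf, which blocks Mdm2. It had 51.2 RPKM in WT and 32.1 RPKM in KO, a 1.60-fold lower level and a log2 ratio of -0.66. From the low end it ranked 331 of the expressed entries. The deposited entry joins both Cdkn2a transcripts, so p16Ink4a and p19Arf cannot be told apart. Its neighbour Cdkn2b, which encodes the CDK inhibitor p15Ink4b, was lower in KO as well, with 43.9 RPKM in WT and 33.0 RPKM in KO (log2 ratio -0.40).

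The arrest gene Cdkn1a was the most abundant of the members and had the largest difference in RPKM. Cdkn1a (chromosome 17, 29090986 to 29100722, plus strand), whose product p21 halts the cell cycle by inhibiting CDKs, had 391 RPKM in WT and 609 RPKM in KO, a ratio of 1.56 and a log2 ratio of 0.64. It was the 86th most abundant entry in WT and the 62nd in KO, and by log2 ratio it ranked 383 of the expressed entries. After quantile normalization its log2 ratio was 0.40 and no longer above 0.58. Ccng1 (chromosome 11, 40748552 to 40755286, minus strand) encodes cyclin G1, a p53 target that takes part in the feedback on p53 through Mdm2. It had 132 RPKM in WT and 128 RPKM in KO, with a log2 ratio of -0.05. The sign of this small value turned with centring on the median of the expressed entries (0.01). Cdkn1a, with 2 half-sites in the promoter stretches shown above, and Ccng1, with 1, stood at different places in the order of differences. Whether the half-sites had a part in these levels was not tested.

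The cell death genes differed from one another. Bax (chromosome 7, 45461695 to 45466898, minus strand), whose product permeabilises the outer mitochondrial membrane, had 185 RPKM in WT and 186 RPKM in KO, with a log2 ratio of 0.01 that became -0.08 after quantile normalization. Bbc3 (chromosome 7, 16309583 to 16318334, plus strand) encodes PUMA, a BH3-only protein that sets Bax free from its inhibitors. It had 8.24 RPKM in WT and 13.0 RPKM in KO, a ratio of 1.58 and a log2 ratio of 0.60, and ranked 416 of the expressed entries. Of these genes Bax was thus level between the libraries and Bbc3 higher in KO. Pmaip1, which encodes the BH3-only protein NOXA, had 15.9 RPKM in WT and 12.5 RPKM in KO (log2 ratio -0.33), and Bak1, which acts alongside Bax, had 41.7 and 39.6 RPKM. Perp (chromosome 10, 18845071 to 18857072, plus strand) encodes a membrane protein of the PMP22 family that acts in p53-dependent cell death and in desmosomes. It had 6.25 RPKM in WT and 2.28 RPKM in KO, a 2.75-fold lower level and a log2 ratio of -1.15. From the low end it ranked 31 of the 10888 expressed entries. These levels correspond to about 383 and 131 of the recurring steps that low RPKM values show, which stand for single reads or read pairs, so neither value rests on a few reads. Perp is abundant in stratified epithelia, and the epithelial genes Cdh1 and Esrp1 were listed at 0 in both libraries. Over all 8 epithelial markers the summed level was 1.13 RPKM in WT and 0.684 RPKM in KO, most of it from Krt18 (1.02 and 0.660 RPKM), and 3 markers in WT and 5 in KO were listed at 0.

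The stress genes Gdf15 and Sesn2 were both higher in KO, by less than 1.5-fold. Gdf15 (chromosome 8, 70629394 to 70631635, minus strand), a secreted cytokine of the TGF-β family, had 5.86 RPKM in WT and 8.25 RPKM in KO, a ratio of 1.41 and a log2 ratio of 0.43. Sesn2 (chromosome 4, 132492807 to 132510456, minus strand), which restrains mTORC1 and acts in antioxidant defence, had 23.3 RPKM in WT and 29.2 RPKM in KO, a ratio of 1.25 and a log2 ratio of 0.31. Its relative Sesn1, likewise a p53 target, had 2.93 RPKM in WT and 2.23 RPKM in KO (log2 ratio -0.28). Both Gdf15 and Sesn2 are also targets of ATF4, the factor of the integrated stress response. Of 9 genes on a list of ATF4 and its targets, which includes both, 6 were higher and 3 lower in KO, 0 lay past a log2 ratio of 0.58 in either direction, and the median was 0.16. Of the expressed entries 39.1% were higher in KO, 3.98% lay above 0.58 and 4.26% below -0.58. Atf4 itself, the most abundant, had 111 RPKM in WT and 116 RPKM in KO. Atf3 had the highest log2 ratio of that list (0.50, from 1.72 to 2.85 RPKM) and Chac1 the lowest (-0.41, from 6.46 to 4.60 RPKM). The ratio of Atf3 without the pseudocount was 1.65, so its place below 0.58 rests on the pseudocount of 1.

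**Figure D2:**
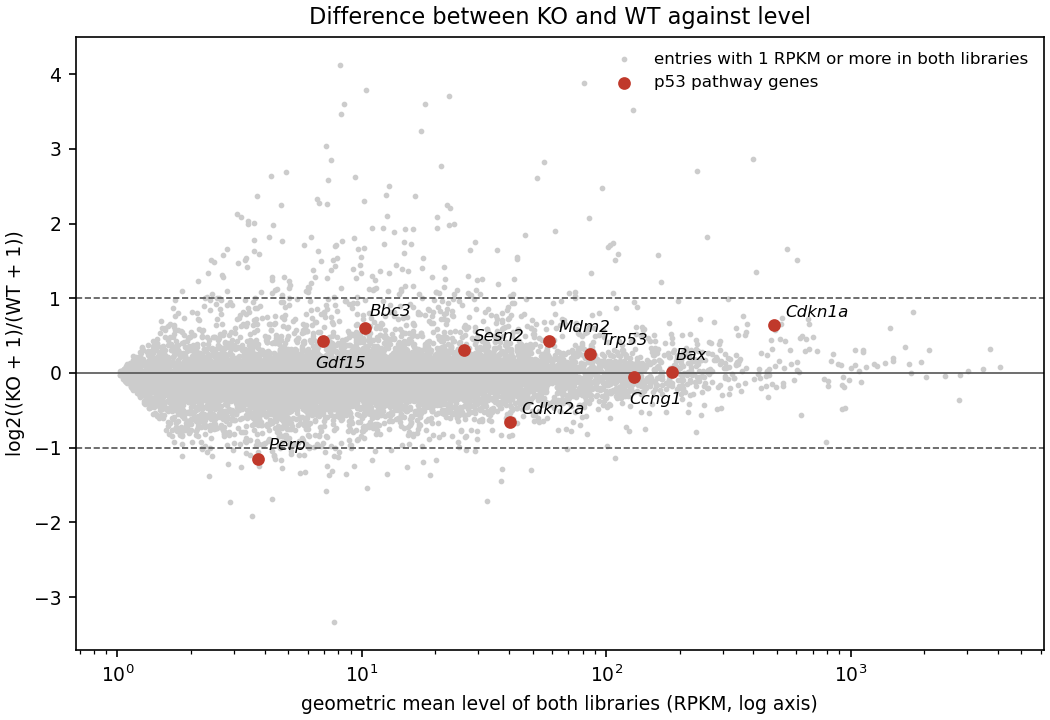
Log2 ratio of KO over WT (pseudocount 1) against the geometric mean level of both libraries in RPKM on a log axis, for the 10888 expressed entries (grey) and the 10 p53 pathway genes (red). Dashed lines mark log2 ratios of 1 and -1. Perp lies below -1, and the other 9 genes lie between the lines, with Cdkn1a at the right at 0.64.

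The order of the levels was much the same in both libraries. In WT it ran from Cdkn1a through Bax, Ccng1, Trp53, Cdkn2a, Mdm2, Sesn2, Bbc3 and Perp to Gdf15. In KO Mdm2 stood above Cdkn2a and Gdf15 above Perp, and the other places were the same. In WT Cdkn2a and Mdm2 (51.2 and 49.8 RPKM) and Perp and Gdf15 (6.25 and 5.86 RPKM) were neighbours with close values, and with 1 library each it cannot be said whether such neighbours differ beyond their spread. Cdkn1a made up 42.0% of the summed RPKM of the 10 genes in WT and 52.1% in KO.

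Other p53 targets were described from lists by role. Of 41 targets outside the members, 27 were higher and 14 lower in KO, and the median was 0.09. Of the expressed entries 39.1% were higher in KO, with a median of -0.06. Above 0.58 lay 4 of the targets (Dram1, Ddit4, Fas and Btg2) and below -0.58 lay 0, where 3.98% and 4.26% of the expressed entries lay. Of the 9 arrest targets found of 10, 6 were higher and 3 lower, with a median of 0.22. Btg2, an antiproliferative gene, had 27.6 RPKM in WT and 46.3 RPKM in KO (log2 ratio 0.72), Plk2, a kinase of the polo family and the most abundant, had 70.0 and 88.1 RPKM, and Rprm, with the lowest log2 ratio (-0.27), had 3.69 and 2.88 RPKM. Of the 13 cell death targets, 9 were higher and 4 lower, with a median of 0.10. Dram1, a lysosomal protein that acts in autophagy, had 5.48 RPKM in WT and 18.0 RPKM in KO, a ratio of 3.28 and a log2 ratio of 1.55, the highest of all targets examined. Fas, the death receptor, had 5.25 and 9.48 RPKM (log2 ratio 0.75). Phlda3, an inhibitor of Akt and the most abundant of this list, had 293 and 321 RPKM, and Pmaip1 had the lowest log2 ratio. Of the 19 targets of metabolism and repair, 12 were higher and 7 lower, with a median of 0.07. Ddit4, which restrains mTORC1, had 19.0 RPKM in WT and 40.1 RPKM in KO (log2 ratio 1.04). Ephx1, an epoxide hydrolase, was the most abundant (110 and 116 RPKM), and Rrm2b, a subunit of ribonucleotide reductase, had the lowest log2 ratio (-0.31, from 1.40 to 0.927 RPKM). Dram1 is also expressed in macrophages, whose marker Lyz2 had 13.9 RPKM in WT and 34.7 RPKM in KO, and the part of this was not tested.

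The p53-p21-DREAM list holds genes of the S phase and of mitosis that p53 is known to lower through p21 and the DREAM complex. They were lower in KO throughout the list, and whether p53 or p21 had a part in this was not tested. Like all lists here, this list was chosen with earlier results of these data known. All 15 were lower, with a median log2 ratio of -0.89, against -0.06 over the expressed entries. Below -0.58 lay 12 of them, where 4.26% of the expressed entries lay, and below -1 lay 4 (Cdc20, Ccna2, Top2a and Ccnb1), where 0.56% of the expressed entries lay. Cdc20, the activator of the anaphase-promoting complex, had 24.3 RPKM in WT and 9.61 RPKM in KO, a 2.53-fold lower level and a log2 ratio of -1.25. Ccna2, which encodes cyclin A2, had 12.5 and 5.14 RPKM (log2 ratio -1.13), Top2a, a topoisomerase of dividing cells, had 10.8 and 4.67 RPKM (-1.05), and Ccnb1, which encodes cyclin B1, had 3.68 and 1.33 RPKM (-1.01). The highest log2 ratio was that of Chek1 (1.23 and 0.695 RPKM, log2 ratio -0.40), whose low values the pseudocount of 1 understates. Without a pseudocount Chek1 was 1.78-fold lower in KO. E2f1, a factor of the G1 to S transition and among the most abundant of the list, had 23.2 RPKM in WT and 16.1 RPKM in KO. At 1.44-fold lower it differed less than Chek1 by this measure. The count below -1 depended on the processing, with 8 genes at a pseudocount of 0.1 and 2 after centring or after quantile normalization, while the median moved by less than 0.58 under every alternative tried.

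**Figure D3:**
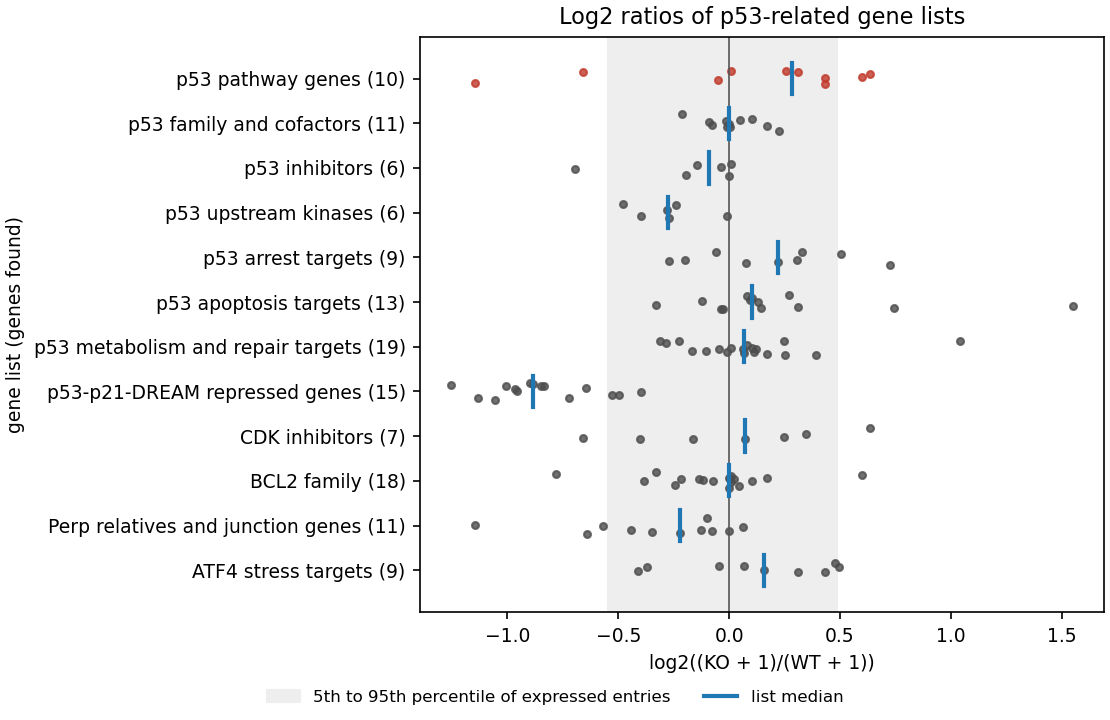
Log2 ratio of KO over WT (pseudocount 1) of every gene found in each p53-related list, with 1 point per gene (p53 pathway genes in red), a blue bar at the list median, and in grey the range from the 5th to the 95th percentile of expressed entries. The 15 genes of the p53-p21-DREAM list lie left of 0 with a median of -0.89, whereas the target lists centre between 0.07 and 0.22.

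Upstream of p53, most kinases were lower in KO, and 1 inhibitor, Trim24, had a log2 ratio below -0.58. All 6 kinases of the DNA damage response were lower in KO, the median being -0.27, and 0 lay past 0.58 in either direction. Most had low values, which the pseudocount of 1 understates, and with a pseudocount of 0.1 the median was -0.45. Without a pseudocount Atr was 1.73-fold and Chek1 1.78-fold lower in KO. Of the expressed entries 60.9% were lower, with a median of -0.06, and Chek1, 1 of the 6, is also on the DREAM list. The lowest log2 ratio was that of Atr (1.99 RPKM in WT and 1.15 RPKM in KO, log2 ratio -0.48). The highest log2 ratio and level were those of Hipk2 (14.4 and 14.3 RPKM, log2 ratio -0.009), which was nearly level. Of 6 inhibitors of p53 besides Mdm2, 1 was higher (Ppm1d, 3.65 and 3.68 RPKM) and 5 were lower. The 5 include Mdm4 (log2 ratio -0.001) and Pias1 (-0.03), which were nearly level. The median of the 6 was -0.09, and -0.03 after centring on the median of expressed entries. Trim24, a ubiquitin ligase for p53, was the lowest (5.08 and 2.76 RPKM, log2 ratio -0.69), and Rchy1 the most abundant (16.2 and 14.0 RPKM). Of 11 genes of the p53 family and its cofactors, 5 were higher and 5 lower, from Usp7 (log2 ratio -0.21, 15.1 and 12.9 RPKM) to Ppp1r13l (0.23, 18.4 and 21.7 RPKM). The relatives of Trp53 were hardly detected. Trp73 was listed at 0 in both libraries, and Trp63 had 0.0104 RPKM in WT and was listed at 0 in KO.

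Relatives of the members gave mixed values, where 39.1% of the expressed entries were higher and 60.9% lower in KO. Of the 7 CDK inhibitors, 4 were higher and 3 lower in KO, with Cdkn1a at the upper and Cdkn2a at the lower end. Of the 18 genes of the BCL2 family, 8 were higher, 8 lower and 2 equal. Only 12 of the 18 reached 1 RPKM in WT or in KO, and their median was -0.10, against -0.06 over the expressed entries. The others include Bik, Bcl2a1a and Bcl2a1b, counted as higher, and Bmf, counted as lower. Bbc3 had the highest log2 ratio, and Bok, a relative of Bax, the lowest (39.1 RPKM in WT and 22.3 RPKM in KO, log2 ratio -0.78). Bcl2l1, the main antiapoptotic member by level, had 55.9 and 42.6 RPKM (log2 ratio -0.38). Of 11 genes of the PMP22 family and of desmosomes, 1 was higher (Emp3, 303 and 316 RPKM, the most abundant) and 9 were lower, with Perp the lowest and a median of -0.22. The 9 include Perp itself and, near the floor, Dsp (0.116 and 0.0211 RPKM) and Dsc2 (0.175 and 0.113 RPKM). Pmp22 itself had 57.8 RPKM in WT and 53.8 RPKM in KO. Jup, which encodes the junction protein plakoglobin, had 38.1 and 24.1 RPKM (log2 ratio -0.64), and Emp1 had 297 and 200 RPKM (-0.57). Perp was the 1 gene of this list below -1.

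**Figure D4:**
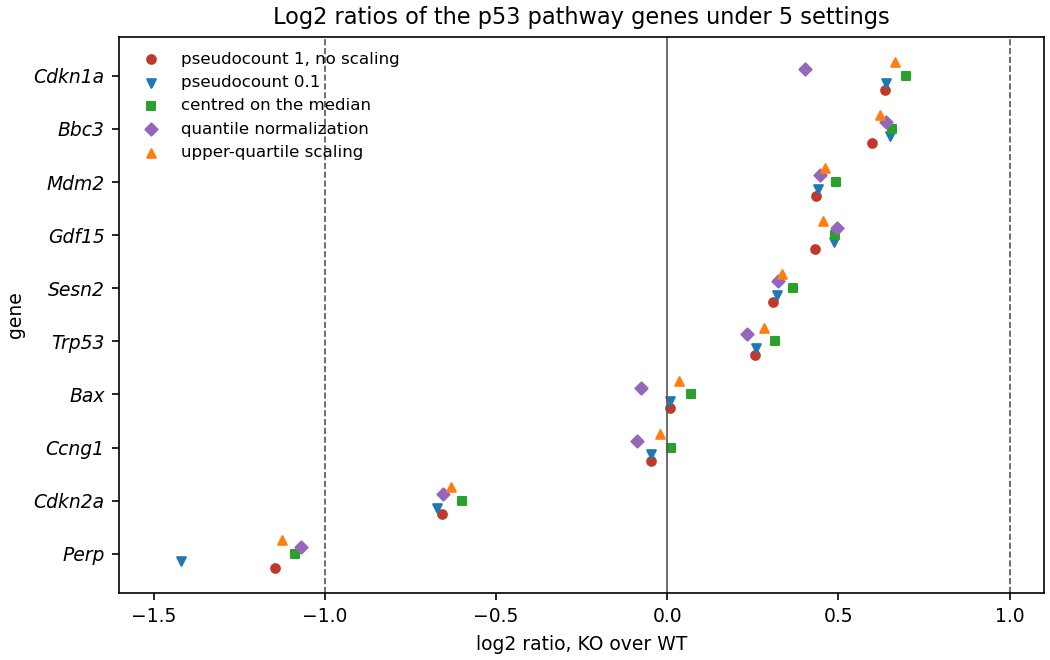
Log2 ratio of KO over WT of each p53 pathway gene under 5 settings, with 1 point per setting and dashed lines at 1 and -1. Perp stays below -1 at every setting, the values of Bax and Ccng1 lie on either side of 0, and Cdkn1a drops to 0.40 after quantile normalization.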

How the data were processed

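Poly-A RNA of WT and NEAT1 KO MEFs was sequenced, with 1 library per group, and groups were taken from the sample titles. The authors deposited 1 RPKM value for each of 23329 RefSeq entries per library, with no normalization between libraries stated. The submitters' processing notes name CASAVA 1.8, mm10 and hg18 without giving their roles. The read counter, its use of strand and its handling of reads with several matches are not given in the sources used here. Starts were raised by 1 to count from 1, and coordinates were compared with GENCODE M21, which is on mm10. The VCaP libraries were not used here.

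Depth was read from low values. RPKM multiplied by exon length recurred at 31.9 in WT and 33.8 in KO among 5164 entries with 1 transcript and matching ends. 109 of these lay within 0.2 of the WT step and 69 within 0.2 of 15.9, so a step may be a read pair. The step was 1.06 times as large in KO, so the KO library was somewhat shallower. Steps behind a gene are approximate, as GENCODE exon lengths were used.

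Log2 ratios used a pseudocount of 1, as in the study, without a filter. No test was made. Besides the members, 19 lists were used. The members and lists were chosen with earlier results of these data known. Named genes were the members, Neat1, close relatives of members, and in each list the highest and lowest log2 ratio among genes with 1 RPKM or more and the highest level. Other genes named (Lum, Dcn, Pdgfra, Fas, Ccna2, Top2a, Ccnb1, Jup, Emp1, Bcl2l1 and markers) were chosen after their values were seen. 6 other settings were tried, namely upper-quartile scaling, quantile normalization, centring on the median of expressed entries, a smaller pseudocount (0.1), a filter that required 1 RPKM in WT or in KO, and 1 entry per symbol. With no replicate spread, a log2 ratio was taken as kept within 0.58 and a count within 1.5 times. Scripts were tested on simulated data. The software was numpy 2.4.6 and pandas 2.3.3 under Python 3.11.15, with figures by matplotlib 3.10.9. Promoters are from RefSeq.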

Additional observations from a re-analysis of the deposited data

How the results depend on the processing

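Each of the 75 values and counts was recomputed under 6 alternatives. Of these 450 comparisons 441 stayed within the limits set and 0 of the log2 ratios past 1 changed sign. Every symbol stands on 1 entry, so keeping 1 entry per symbol changed nothing, and the 1 RPKM filter left the value of every member unchanged. Changes of sign were counted only for log2 ratios past 1, which were those of Perp and the medians of the interferon-stimulated and sex-linked genes. The limit of 0.58 is wider than the log2 ratios of Trp53, Mdm2, Ccng1, Bax, Gdf15 and Sesn2. A value could thus count as kept and still turn its sign, as those of Bax and Ccng1 did. Quantile normalization left 1 p53 pathway gene above 0.58 (Bbc3) in place of 2, because the log2 ratio of Cdkn1a became 0.40. In the p53-p21-DREAM list, the genes with a log2 ratio below -1 numbered 8 with a pseudocount of 0.1, and 2 after centring and after quantile normalization, in place of 4. With the pseudocount of 0.1 the median of the sex-linked genes was 4.36 and that of the macrophage markers 1.21, with 5 of these above 1, and 1 endothelial marker lay below -1. With the minimum of 1 RPKM the muscle list kept 1 gene, Des, and its median was -0.79. No paired analysis was possible because each group has 1 library. No replicate could be left out for the same reason, so these ranges cover processing only and not the difference between cultures. The scalings moved the median of expressed entries by at most 0.06. Centring moves every log2 ratio by that same amount, so it could not take one past the limit of 0.58.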

Other observations

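Ratios of members within a library do not depend on scaling a library by a constant factor, although quantile normalization changes them. Cdkn1a had 2.96 times the RPKM of Ccng1 in WT and 4.77 times in KO, 2.12 and 3.28 times that of Bax, and 7.63 and 19.0 times that of Cdkn2a. Mdm2 had 0.636 times the RPKM of Trp53 in WT and 0.721 times in KO. Bax had 22.4 times the RPKM of Bbc3 in WT and 14.3 times in KO, and 3.30 and 4.36 times that of the antiapoptotic Bcl2l1. Cdkn2a and its neighbour Cdkn2b were close, with ratios of 1.17 and 0.972.

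Markers of further cell types were examined as well. The 7 endothelial markers had 1.18 RPKM in sum in WT and 0.664 RPKM in KO, most of it from Kdr (1.01 and 0.397 RPKM). Of the 7 skeletal muscle markers Des had 6.28 and 3.20 RPKM, and Myod1 and Myog, which define the lineage, had 0.0139 and 0.0216 RPKM in WT and were listed at 0 in KO. Of the 6 neural markers Tubb3 had 35.9 and 36.1 RPKM and Stmn2 8.03 and 3.27 RPKM (log2 ratio -1.08), and Dcx was listed at 0 in both.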
